A study of Mus musculus with 9 samples.

Results

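The comparison described here set SV40-MES-13 cells carrying the strong Drosha shRNA sh7 against the same cells carrying the partial Drosha shRNA sh5. It holds 3 of the 9 samples of the series and 3 of its 5 mRNA libraries, namely sh7 replicate 1, sh7 replicate 2 and the lone sh5 library. SV40-MES-13 is a mouse kidney line made with the SV40 large T antigen and labelled by the submitters as mesangial. Both groups were infected with pLL3.7 lentivirus that carried an shRNA, so the vector backbone and the intended target are shared and the shRNA sequence differs. The library titles call these cells Drosha KO, whereas the protocols describe shRNA knockdown. The 2 empty vector libraries enter no difference below, and the 4 small RNA libraries are not analysed here. Nothing in the labels says whether the replicates were separate cultures, so the p-values speak to the scatter of these particular libraries, some of which may be technical. With 1 library in the sh5 group, the level of Drosha, the shRNA sequence and any property of that 1 library cannot be told apart.

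Drosha is the nuclear RNase III enzyme that, together with its RNA-binding partner Dgcr8, forms the Microprocessor. The complex cuts the hairpin out of long primary microRNA transcripts, and the host transcript is then degraded while Dicer, in the cytoplasm, turns the freed hairpin into a mature microRNA. The Microprocessor also cuts a hairpin within the Dgcr8 mRNA, which ties the level of Dgcr8 to Drosha activity.

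The 2 shRNA inserts that define the groups, given as DNA 5′ to 3′ from the labels, were these.
sh7: GTGTGCCCATTGAAATAAA
sh5: CCTGGAATATGTCCACACTTT
The sh7 insert has 19 bases and 36.8% GC, and the sh5 insert has 21 bases and 42.9% GC.

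Expression was deposited as TPM, an abundance corrected for transcript length and scaled to a fixed total in each library. Genes above 0 TPM numbered 21717 and 22045 in the sh7 libraries and 20280 in the sh5 library. Tests on log2(TPM + 1) covered 12827 genes, those whose mean across sh7 and sh5 reached 1 TPM. The sh7 libraries lay a median of 0.16 log2 units above the sh5 library over these genes, and this shift was subtracted from every difference given below, so a positive difference means a level in sh7 above that in sh5 relative to the median gene. The sh7 replicates correlated at r = 0.982 across these genes, and each correlated with sh5 at r = 0.972 and 0.966. The median absolute difference was 0.242 log2 units between sh7 and sh5 and 0.137 between the sh7 replicates. The TPM scale keeps no sequencing depth, so no counting error could be given.

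The labelled cell type was checked against its markers. Of 27 mesangial and pericyte markers, 4 passed the filter, Pdgfrb stood at 0.0899 and 0.224 TPM in sh7 and 0.12 TPM in sh5, and Itga8 was listed at 0 in all 3 libraries. Gata3, a transcription factor named in the series title, did not reach the filter, with 0.559 and 0.39 TPM in sh7 and 0.50 TPM in sh5. Epithelial genes were abundant, with the keratin Krt18 at 552 and 535 TPM in sh7 and 673 TPM in sh5, and 16 of 26 tubule and epithelial markers were tested. The podocyte marker Nphs1 was at 0.0789 and 0.0404 TPM in sh7 and 0.24 TPM in sh5. Of the leukocyte markers, Ptprc stood at 0.106 and 0.122 TPM in sh7 and 0.0425 TPM in sh5, and Cd68 at 11.5 and 10.7 TPM in sh7 and 10.2 TPM in sh5.

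Drosha itself, the target of both shRNAs, stood at 8.39 and 14.9 TPM in the sh7 libraries, against 36.0 TPM in the sh5 library, so both sh7 libraries lay below sh5. The log2 difference was -1.75 (SE 0.343), with a limma adjusted p of 0.105 over all genes tested, which does not pass the 0.05 threshold. The sh7 mean was 11.7 ± 4.63 TPM (SD, n = 2), and the distance between the replicates widened the error.

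By limma with Benjamini-Hochberg adjustment, 9 genes rose in sh7 relative to sh5, which is 0.0702% of the genes tested, and 1 gene fell, which is 0.0078%. Those with a known product were Dgcr8, the host transcript Mir22hg, the interferon-induced genes Ifit3, Ifit3b, Ifit2 and Ifi44, and the nuclear import receptor Kpna2. The remaining 3 are gene models without a gene class in the annotation used here, named after their values were seen. Whether they share reads with other genes was not tested. AL805899.1 rose, with 48.2 and 55.1 TPM in sh7 and 1.63 TPM in sh5, ENSMUSG00002076924 rose, with 46.5 and 31.3 TPM in sh7 and a listing at 0 in sh5, and Gm28438 fell, with 136 and 120 TPM in sh7 and 493 TPM in sh5. The count of calls depended on the filter on low values and on the scaling. It was 1238 genes with a filter at a mean of 5 TPM, and 0 without a filter, with 4521 genes at an unadjusted p under 0.05. For that reason genes are also counted below at an unadjusted p under 0.05, where 12.7% of all genes tested lay higher in sh7 and 11.5% lower, and by whether both sh7 libraries fell on the same side of sh5, where 40.3% lay above and 40.7% below. These counts are descriptions, not calls. Their balance turned with the scaling. The 12.7% and 11.5% stand for 1628 genes higher and 1475 lower in sh7, which became 2874 and 572 without the median correction, and 1326 and 2075 with each library centred on its own median. At the adjusted threshold the same choices gave 65 higher and 4 lower, and 140 higher and 83 lower.

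Dgcr8 was the Microprocessor subunit that rose. Its mRNA was at 171 and 161 TPM in sh7 and 24.3 TPM in sh5, both sh7 libraries lying above sh5, and the log2 difference was 2.56 (SE 0.102, limma adjusted p = 0.0195). RefSeq places the hairpin of miR-1306 within the Dgcr8 gene, at chr16:18284239-18284317 on the minus strand of GRCm38.p6. It is shown because it is a hairpin carried by the mRNA that rose, with the mature miR-1306-3p in capitals.
Mir1306 hairpin: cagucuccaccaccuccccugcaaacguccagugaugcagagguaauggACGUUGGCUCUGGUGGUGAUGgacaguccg
Drosha and Dgcr8 therefore lay on opposite sides of zero in both sh7 libraries, as the plot of Drosha, Dgcr8 and the host transcripts shows.

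**Figure D1:**
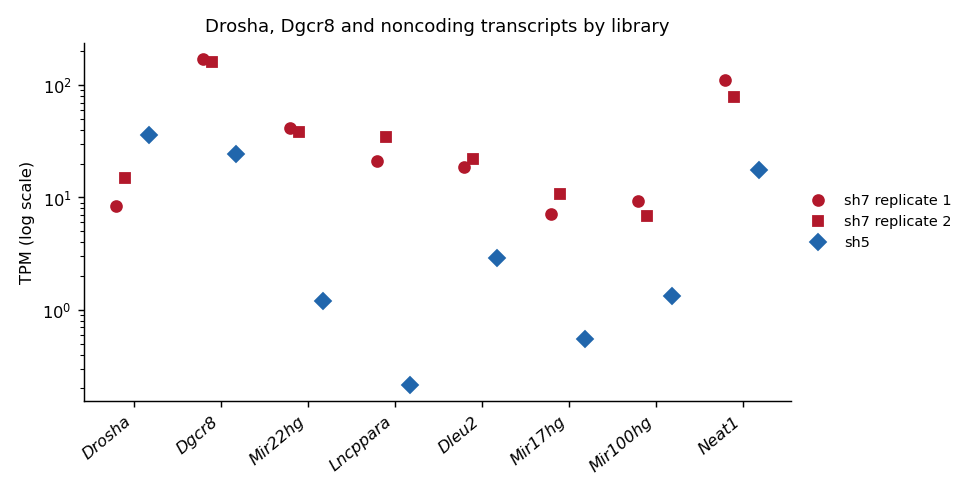
TPM on a log axis for Drosha, Dgcr8 and 6 noncoding transcripts in sh7 replicate 1 (circle), sh7 replicate 2 (square) and the sh5 library (diamond). Drosha is lower in both sh7 libraries (8.39 and 14.9 TPM, against 36.0 TPM in sh5), and the other 7 transcripts are higher in both.

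The rest of the microRNA pathway differed far less. Of 30 Microprocessor and biogenesis genes 27 were tested, Dgcr8 alone passed the adjusted threshold, and the list median was 0.07 log2 units. At an unadjusted p under 0.05, 8 lay higher, Dgcr8 included, and 3 lower, Drosha included. Of all genes tested 12.7% lay higher and 11.5% lower. Tut4 and Tut7, the terminal uridylyltransferases that tag precursor microRNAs, differed by 0.92 (SE 0.143, limma adjusted p = 0.0851) and 0.56 log2 units (SE 0.123, limma adjusted p = 0.119). Tut4 was at 19.2 and 19.1 TPM in sh7 and 8.54 TPM in sh5. Adar, the inosine editing enzyme of double-stranded RNA, was at 97.9 and 95.6 TPM in sh7 and 56.3 TPM in sh5. The helicases Ddx17 and Ddx5, cofactors of the Microprocessor, differed by 0.48 and 0.38 log2 units. Lower values were seen for Ran, the GTPase of nuclear transport, at -0.47 log2 units and for the cap-binding subunit Ncbp1 at -0.45. Dicer1 was at 22.9 and 26.1 TPM in sh7 and 19.2 TPM in sh5, a difference of 0.18 (SE 0.145) that lay close to its error. Among 32 tested genes of Argonaute silencing and mRNA decay, 12 lay higher and 1 lower at an unadjusted p under 0.05, with a median of 0.15. The GW182 protein gene Tnrc6a stood at 36.0 and 41.4 TPM in sh7 and 18.6 TPM in sh5, and the helicase gene Mov10 at 95.7 and 109 TPM in sh7 and 56.5 TPM in sh5.

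Several host transcripts of microRNAs lay far above sh5 in both sh7 libraries. Mir22hg, whose exon carries miR-22, was at 42.0 and 38.4 TPM in sh7 and 1.20 TPM in sh5, a log2 difference of 4.07 (SE 0.152, limma adjusted p = 0.0195). Lncppara, which RefSeq also lists as Mirlet7bhg and whose span holds the hairpins of let-7b and let-7c-2, was at 21.1 and 34.8 TPM in sh7 and 0.213 TPM in sh5 (4.37, SE 0.334, limma adjusted p = 0.0529). Dleu2, host of miR-15a and miR-16-1, was at 18.6 and 22.1 TPM in sh7 and 2.89 TPM in sh5 (2.29, SE 0.184, limma adjusted p = 0.0546). Both sh7 libraries lay several-fold above sh5 for each of these 3 transcripts, and Mir22hg alone passed the threshold. Mir17hg, the primary transcript of the miR-17 to 92 cluster, was at 7.06 and 10.6 TPM in sh7 and 0.545 TPM in sh5 (2.49, SE 0.309, limma adjusted p = 0.0654). Mir100hg, host of miR-100, let-7a-2 and miR-125b-1, was at 9.36 and 6.84 TPM in sh7 and 1.34 TPM in sh5 (1.79, SE 0.267, limma adjusted p = 0.0818). Mir155hg was listed at 0 in sh5 and stood at 1.51 and 1.70 TPM in sh7. Of 25 hosts on the list 8 were tested, with a median difference of 1.51, and 3 of them passed the filter on the sh7 values alone, so that median describes the tested members only.

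The mature microRNAs that these hosts encode are shown with the seed, bases 2 to 8, in capitals, from RefSeq on GRCm38.p6. Shared seeds group miR-17 with miR-20a, miR-19a with miR-19b, miR-15a with miR-16, and let-7b with let-7c.
mmu-miR-22-3p: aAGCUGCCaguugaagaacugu
mmu-let-7b-5p: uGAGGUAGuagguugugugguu
mmu-let-7c-5p: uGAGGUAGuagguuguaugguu
mmu-miR-15a-5p: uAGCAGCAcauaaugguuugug
mmu-miR-16-5p: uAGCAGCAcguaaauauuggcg
mmu-miR-17-5p: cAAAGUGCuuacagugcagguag
mmu-miR-20a-5p: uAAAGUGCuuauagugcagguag
mmu-miR-18a-5p: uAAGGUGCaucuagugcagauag
mmu-miR-19a-3p: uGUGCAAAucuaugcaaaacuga
mmu-miR-19b-3p: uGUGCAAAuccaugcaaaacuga
mmu-miR-92a-3p: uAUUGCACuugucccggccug
mmu-miR-100-5p: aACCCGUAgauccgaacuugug
mmu-miR-125b-5p: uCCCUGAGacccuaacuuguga

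Hosts were also taken by position, which largely gave the transcripts already described. Of the tested lncRNA genes, 17 have a RefSeq span that holds a microRNA hairpin on either strand, and both sh7 libraries lay above sh5 for 13 of them and below for 3, with a median difference of 1.15 log2 units. Among the other 423 lncRNAs, 150 lay above and 155 below, with a median of -0.02. At least 1 log2 unit above sh5 in both libraries were 8 of the 17 and 16 of the 423, beside 2.54% of all genes tested. The 8 were Mir22hg, Lncppara, Dleu2, Mir17hg, Mir100hg and Mir155hg, given above, with E130102H24Rik and Gm53058. Because a transcript near 0 in sh5 can pass the filter only through sh7, the counts were repeated for lncRNAs with at least 1 TPM in sh5. There 7 of 11 hairpin-spanning lncRNAs lay above and 3 below, with a median of 0.46, and the 3 at least 1 log2 unit above were Mir22hg, Dleu2 and Mir100hg, against 104 above and 155 below of 360 others, with a median of -0.08. Protein-coding genes that span a hairpin had a median of 0.11 over 441 genes, against -0.01 over 10527 others. These sets were not matched for gene length. All protein-coding genes in the longest quintile by RefSeq span had a median of 0.17, and those in the quintile before it 0.08. The predicted host C430049B03Rik, which spans miR-322 and miR-503, was at 2.72 and 3.63 TPM in sh7 and 0.671 TPM in sh5. A curated list of genes with an intronic microRNA had a median of 0.19, with 4 higher and 2 lower of 35 tested at an unadjusted p under 0.05. Smc4, a condensin gene with miR-15b and miR-16-2 in its span, was at 165 and 177 TPM in sh7 and 63.3 TPM in sh5 (1.26, SE 0.103, limma adjusted p = 0.0546).

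**Figure D2:**
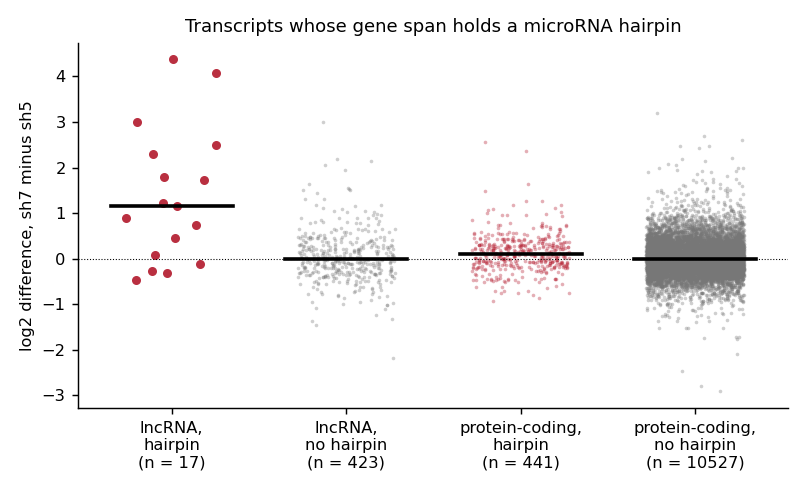
Log2 difference, sh7 minus sh5, for each tested lncRNA or protein-coding gene, split by whether its RefSeq span holds a microRNA hairpin; black lines are medians. The 17 hairpin-spanning lncRNAs reach 4.37 and have a median of 1.15, while the other 3 sets have medians near 0.

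Hairpin loci that the table lists as genes of their own were seen more often in sh7. Among 1177 such loci, 70 and 87 were above 0 TPM in the sh7 libraries and 25 in sh5. Of the 53 tested, 38 were listed at 0 in sh5, and 31 of these were above 0 in both sh7 libraries, so most entered through the sh7 values. The 15 loci with at least 1 TPM in sh5 split into 7 with both sh7 libraries above and 6 with both below. Named by their level of over 5 TPM in both sh7 libraries, with a listing at 0 in sh5, were Mir29a (11.3 and 21.1 TPM), Mir186 (13.4 and 10.8 TPM), Mir146 (6.95 and 15 TPM), Mir23a (11.5 and 8.17 TPM), Mir27a (6.31 and 8.30 TPM) and Mir7-1 (5.00 and 16.6 TPM). None of the 53 passed the adjusted threshold. Mir196a-1 stood at 50.8 and 46.2 TPM in sh7 and 20.1 TPM in sh5. Mature microRNAs carry no poly(A) tail, and mRNA was enriched with oligo(dT) beads, per the labels. Mature sequences of the loci listed at 0 in sh5 are given for 4 of them; miR-23a and miR-27a are neighbours on chromosome 8.
mmu-miR-29a-3p: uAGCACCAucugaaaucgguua
mmu-miR-186-5p: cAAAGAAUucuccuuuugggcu
mmu-miR-23a-3p: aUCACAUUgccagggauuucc
mmu-miR-27a-3p: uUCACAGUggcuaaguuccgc

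Small nucleolar RNA loci, most of which lie in introns of host genes, were also seen more often in sh7. Of 1052 loci, 102 and 111 were above 0 TPM in the sh7 libraries and 62 in sh5, and their summed level was 581 and 679 TPM in sh7 and 229 TPM in sh5. Genes of any kind above 0 TPM were also more numerous in sh7, at 21717 and 22045 against 20280 in sh5. Among the 46 tested loci with at least 1 TPM in sh5, 24 lay above sh5 in both sh7 libraries and 7 below. Small nuclear RNA loci above 0 TPM numbered 85 and 94 in the sh7 libraries and 79 in sh5, with a summed level of 152 and 177 TPM in sh7 and 129.6 TPM in sh5, whereas of the 23 tested with at least 1 TPM in sh5, 1 lay above sh5 in both sh7 libraries and 12 below. The list of nuclear long noncoding RNAs was mixed. Of 22 tested, 7 lay above sh5 in both sh7 libraries and 10 below, with a median of 0.04 that ranged from -0.07 to 0.20 across the alternatives, and Snhg8 and Snhg15, host genes of small nucleolar RNAs, stood at -0.51 and -0.41. The members with the largest differences included Neat1, the scaffold of paraspeckles, and Malat1, a component of nuclear speckles. Neat1 was at 112 and 78.6 TPM in sh7 and 17.7 TPM in sh5 (2.18, SE 0.233, limma adjusted p = 0.0651), and Malat1 at 9.69 and 7.20 TPM in sh7 and 2.38 TPM in sh5 (1.31, SE 0.252, limma adjusted p = 0.104). Over all 440 tested lncRNAs the median was 0.00. Hoxb5os, an antisense transcript of the Hoxb cluster, was at 24.3 and 42.2 TPM in sh7 and 2.71 TPM in sh5 (2.99, SE 0.347, limma adjusted p = 0.0651), and the use of strand in the counting is not given in the sources used here, so reads of an overlapping gene on the other strand cannot be told apart.

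Genes of the type I interferon response were higher in sh7 almost without exception. Of 65 genes 63 were tested, 4 rose, 60 lay higher and 1 lower at an unadjusted p under 0.05, and 62 lay above sh5 in both sh7 libraries, with a median of 0.98 log2 units. Their summed level was 13712 and 13653 TPM in the sh7 libraries and 7369 TPM in sh5. Ifit3, Ifit3b and Ifit2 encode RNA-binding proteins that restrain viral translation. Ifit3 was at 170 and 180 TPM in sh7 and 23.3 TPM in sh5 (2.70, SE 0.102, limma adjusted p = 0.0195). Ifit3b was at 55.6 and 56.2 TPM in sh7 and 8.54 TPM in sh5 (2.42, SE 0.116, limma adjusted p = 0.0348), and since it is nearly identical to Ifit3 the split of reads between them is uncertain, whereas their sum was 225 and 236 TPM in sh7 and 31.8 TPM in sh5. Ifit2 was at 93.0 and 92.5 TPM in sh7 and 21.3 TPM in sh5 (1.91, SE 0.102, limma adjusted p = 0.0348), and Ifi44 at 146 and 161 TPM in sh7 and 33.7 TPM in sh5 (1.99, SE 0.111, limma adjusted p = 0.0348). Both sh7 libraries lay above sh5 for each of these 4 genes, as they did for 40.3% of all genes tested.

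Close to the threshold were further antiviral effectors and regulators. Oas2, which makes the 2-5A activator of RNase L, was at 38.9 and 49.5 TPM in sh7 and 6.24 TPM in sh5 (2.47, SE 0.186, limma adjusted p = 0.0522). Rsad2, encoding viperin, was at 108 and 101 TPM in sh7 and 30.0 TPM in sh5 (1.60, SE 0.105), Stat2, the signal transducer of the interferon receptor, at 76.6 and 85.0 TPM in sh7 and 23.1 TPM in sh5 (1.60, SE 0.12), and Gbp7, a guanylate-binding protein gene, at 28.4 and 31.3 TPM in sh7 and 6 TPM in sh5 (1.98, SE 0.145), each at a limma adjusted p of 0.0522. Gbp3, Ifi211, Slfn9 and Ube2l6 had the same adjusted p and differences of 1.31 to 1.65. Abundant members varied. Oasl2 was at 432 and 485 TPM in sh7 and 139 TPM in sh5 (1.56, SE 0.117). Isg15, a ubiquitin-like modifier, was at 752 and 780 TPM in sh7 and 302 TPM in sh5 (1.18, SE 0.103). Ly6e was at 2880 and 2892 TPM in sh7 and 2172 TPM in sh5 (0.25, SE 0.134). The exception was Ifi27, at 141 and 146 TPM in sh7 and 219 TPM in sh5 (-0.76, SE 0.0957, limma adjusted p = 0.0662).

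Sensors of double-stranded RNA followed. All 23 were tested, none passed the adjusted threshold, 19 lay higher and 0 lower at an unadjusted p under 0.05, and the median was 0.64. Dhx58, the regulator LGP2, was at 60.1 and 76.0 TPM in sh7 and 15.1 TPM in sh5 (1.94, SE 0.175, limma adjusted p = 0.0606), and Eif2ak2, encoding the kinase PKR, at 102 and 115 TPM in sh7 and 43.6 TPM in sh5 (1.14, SE 0.122, limma adjusted p = 0.0651). Rigi and Ifih1, encoding RIG-I and MDA5, differed by 0.93 and 1.02 log2 units. The adaptor gene Mavs was at 25.8 and 21.4 TPM in sh7 and 24.1 TPM in sh5. This list shares 12 members with the interferon list, so the counts are not independent.

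Class I antigen presentation was higher by a smaller margin. Of 24 genes 16 lay higher and 1 lower at an unadjusted p under 0.05, with a median of 0.46. Nlrc5, the transactivator of class I genes, was at 12.1 and 22.1 TPM in sh7 and 2.02 TPM in sh5 (2.37, SE 0.378, limma adjusted p = 0.0882). H2-Q4 was at 210 and 240 TPM in sh7 and 96.5 TPM in sh5, the peptide transporter gene Tap1 at 83.8 and 102 TPM in sh7 and 44.2 TPM in sh5, and B2m at 3554 and 3662 TPM in sh7 and 2303 TPM in sh5. The H2 genes are close copies of each other, so the split of reads among them is uncertain. Calr, the chaperone calreticulin, lay on the other side at 1180.2 and 1240.4 TPM in sh7 and 1745 TPM in sh5. NF-kB genes and inflammatory mediators had a median of 0.09, with 6 higher and 1 lower of 35 at an unadjusted p under 0.05.

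**Figure D3:**
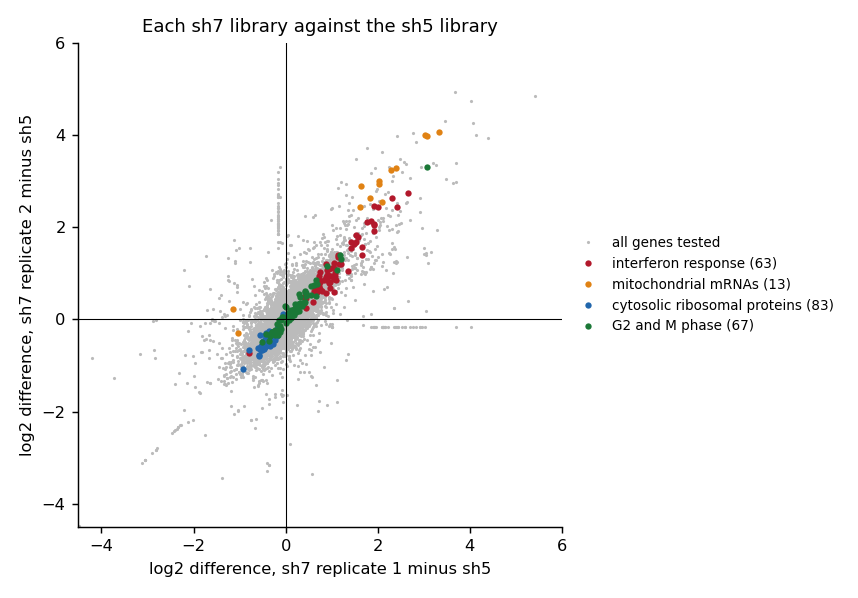
Log2 difference from the sh5 library for each sh7 library, replicate 1 on the x axis and replicate 2 on the y axis, with all genes tested in grey and 4 gene lists in colour. Interferon response genes lie above 0 on both axes except Ifi27, mitochondrial mRNAs reach 3.70 on average over both libraries, and ribosomal protein genes lie below 0 on both axes except Rpl5, at 0.11 in replicate 2.

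The promoters of the interferon genes were searched, because these genes differed together, for GAAANNGAAA on either strand, the core letters of the interferon-stimulated response element. In windows of 250 bases before to 50 after the RefSeq start, 28 of the 47 interferon genes with a promoter entry held at least 1 match, or 59.6%, beside 327 of 9249 tested genes (3.54%) and 1079 of all 27025 promoters (3.99%). In the class I list 5 of 20 did. Both lists were written from general knowledge of these genes. The shares therefore describe the lists and not the difference between sh7 and sh5. Ifit3 and Ifit3b hold 2 matches each and Rsad2 holds 1, while Ifit2 and Ifi44, which also rose, hold 0 in this window. Matches are in capitals in the 2 promoters below, Ifit3 at chr19:34583279-34583578 on the plus strand and Rsad2 at chr12:26456403-26456702 on the minus strand of GRCm38.p6.
Ifit3 promoter: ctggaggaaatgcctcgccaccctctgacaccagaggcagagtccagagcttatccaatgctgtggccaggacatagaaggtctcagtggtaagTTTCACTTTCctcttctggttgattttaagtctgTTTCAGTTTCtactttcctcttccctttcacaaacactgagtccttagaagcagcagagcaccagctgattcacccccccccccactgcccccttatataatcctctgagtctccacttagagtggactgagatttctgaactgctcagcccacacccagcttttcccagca
Rsad2 promoter: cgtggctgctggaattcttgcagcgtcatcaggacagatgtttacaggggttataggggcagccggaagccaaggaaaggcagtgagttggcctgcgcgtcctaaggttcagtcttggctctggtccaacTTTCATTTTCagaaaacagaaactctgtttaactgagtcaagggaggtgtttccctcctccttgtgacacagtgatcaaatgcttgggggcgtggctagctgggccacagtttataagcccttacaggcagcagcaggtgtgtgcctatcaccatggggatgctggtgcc

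Mitochondrially encoded mRNAs had the highest median of the lists described. Of the 13, none passed the adjusted threshold, but 11 lay at least 1 log2 unit above sh5 in both sh7 libraries, beside 2.54% of all genes tested, and the median was 2.48. The complex I subunit mRNA mt-Nd4l was at 387 and 642 TPM in sh7 and 33.5 TPM in sh5 (3.70, SE 0.313, limma adjusted p = 0.0602), and mt-Nd4 at 283 and 532 TPM in sh7 and 29.4 TPM in sh5 (3.52, SE 0.385, limma adjusted p = 0.0651). mt-Co1, of cytochrome oxidase, was at 1759 and 3248 TPM in sh7 and 298 TPM in sh5 (2.84, SE 0.382, limma adjusted p = 0.0738). The sh7 replicates themselves lay far apart, replicate 2 being the higher for every one of the 13, and mitochondrial genes made up 0.898% and 1.61% of all TPM in sh7 and 0.525% in sh5. The exceptions were mt-Nd3, at 1152 and 1934 TPM in sh7 and 2129 TPM in sh5, and mt-Co3, at 282 and 737 TPM in sh7 and 563 TPM in sh5. The mouse nuclear genome holds copies of mitochondrial sequence, and how shared reads were divided is not given in the sources used here. The levels of single mitochondrial mRNAs are therefore uncertain.

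**Figure D4:**
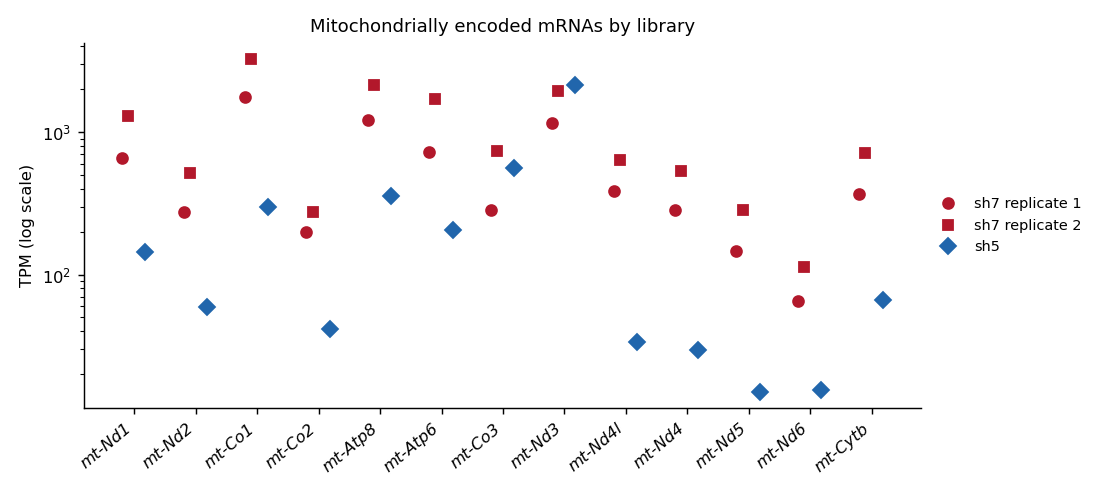
TPM on a log axis for the 13 mitochondrially encoded mRNAs in sh7 replicate 1 (circle), sh7 replicate 2 (square) and the sh5 library (diamond). Of these, 11 lie above sh5 in both sh7 libraries, and mt-Co3 and mt-Nd3 do not.

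Nuclear genes of the respiratory chain lay slightly below sh5. Of 75 tested, 1 lay higher and 19 lower at an unadjusted p under 0.05, with a median of -0.20 that ranged from -0.27 to -0.02 across the alternatives. Among all genes of the most abundant quintile, from 72.1 TPM up, 27.0% lay lower at that p. The 34 respiratory genes in the shortest quintile of gene span had a median of -0.22, beside -0.19 for all protein-coding genes there. The list is therefore close to genes of like level and length. Ndufab1, the mitochondrial acyl carrier protein, was at 104 and 115 TPM in sh7 and 170 TPM in sh5 (-0.79, SE 0.112, limma adjusted p = 0.0784).

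Ribosomal protein genes lay below sh5, most by less than 1 log2 unit. All 83 cytosolic ribosomal protein genes were tested, none passed the adjusted threshold, 57 were lower and 0 higher at an unadjusted p under 0.05, and 82 lay below sh5 in both sh7 libraries, with a median of -0.40. Together they held 15.1% and 14.1% of all TPM in sh7 and 17.5% in sh5. Rps12, of the small subunit, was at 1545 and 1379 TPM in sh7 and 2621 TPM in sh5, about 1 log2 unit lower (SE 0.14, limma adjusted p = 0.0781). Rplp0, of the ribosomal stalk, was at 3324 and 2864 TPM in sh7 and 4450 TPM in sh5 (-0.69, SE 0.168, limma adjusted p = 0.13). Mitochondrial ribosomal protein genes had a median of -0.33, with 49 lower and 0 higher of 81, and Mrps26 was at 60.9 and 60.0 TPM in sh7 and 82.6 TPM in sh5. Translation factors had a median of -0.26, from -0.33 to -0.09 across the alternatives, with 21 lower and 3 higher of 53. Eif4ebp1, the inhibitor of cap-dependent initiation, was at 116 and 109 TPM in sh7 and 199 TPM in sh5 (-0.98, SE 0.101, limma adjusted p = 0.0651), and the initiation factor Eif3d at 314 and 322 TPM in sh7 and 494 TPM in sh5, whereas Eif5b, the GTPase of subunit joining, was at 62.7 and 59.3 TPM in sh7 and 32.3 TPM in sh5. Ribosome biogenesis factors had a median of -0.21, from -0.28 to -0.05, with 24 lower and 4 higher of 76.

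These medians stood beside a general relation of the difference to level and to gene length. In the most abundant quintile of all genes, from 72.1 TPM up, the median difference was -0.16 and both sh7 libraries lay below sh5 for 64.3% of genes, and 81 of the 83 cytosolic ribosomal protein genes are in that quintile. With genes grouped by RefSeq span, introns included, the median over protein-coding genes was -0.19, -0.08, -0.01, 0.08 and 0.17 from the shortest to the longest quintile, and both sh7 libraries showed the same order. Of the ribosomal protein genes 79 were in the shortest quintile, up to 8.29 kb, where their median was -0.40 beside -0.19 for all genes there. Under quantile normalization, which equalizes the level distributions, the median of the cytosolic ribosomal list was -0.07. The part of level and length in these list values was not tested further. The interferon list medians were 0.72, 0.96, 1.07, 1.14 and 1.04 from the shortest to the longest quintile of gene span. The longest 2 of these quintiles held only 7 and 2 interferon genes.

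**Figure D5:**
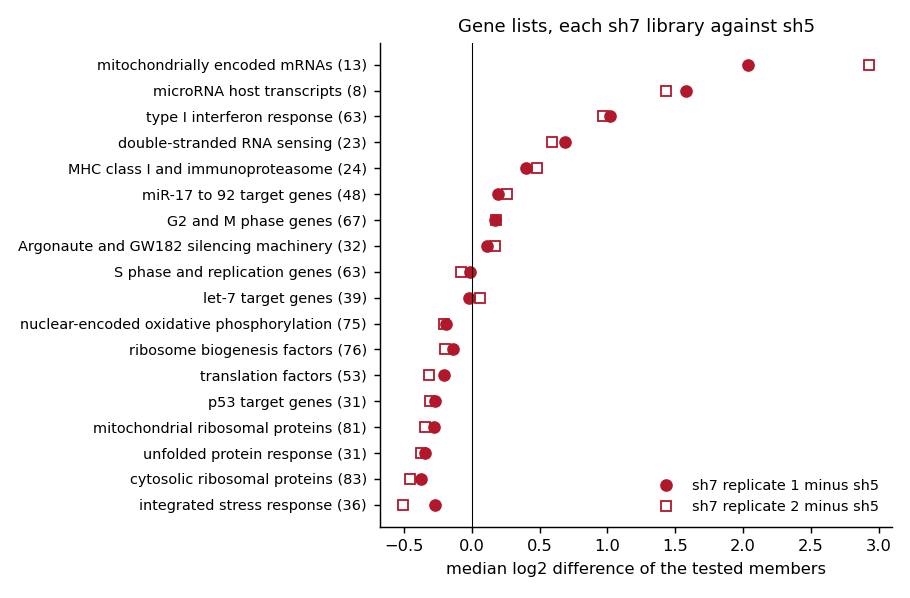
Median log2 difference from sh5 of the tested members of 18 gene lists, for sh7 replicate 1 (filled circle) and sh7 replicate 2 (open square), with the number of tested members in brackets. Mitochondrial mRNAs, microRNA hosts and interferon lists lie highest, and stress response and ribosomal protein lists lie lowest, near -0.40.

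The medians of the stress response lists lay below sh5. Of 36 tested genes of the integrated stress response, 16 were lower and 0 higher at an unadjusted p under 0.05, with a median of -0.40. Psat1, of serine synthesis, was at 264 and 233 TPM in sh7 and 366 TPM in sh5 (-0.72, SE 0.12, limma adjusted p = 0.0895). The unfolded protein response had a median of -0.36, with 15 lower and 1 higher of 31, and its Sdf2l1, an endoplasmic reticulum chaperone component, was at 70.5 and 71.5 TPM in sh7 and 139 TPM in sh5 (-1.12, SE 0.0966, limma adjusted p = 0.0606). From the shortest to the longest quintile of gene span, the unfolded protein response medians were -0.54, -0.43, -0.41, -0.14 and 0.16. Those of the integrated stress response were -0.37, -0.28, -0.59, -0.46 and -0.45. The part of gene length in these values was not tested. Targets of p53, whose protein is bound by the T antigen in such lines, had a median of -0.27, with 13 lower and 1 higher of 31. Phlda3, an inhibitor of Akt, was at 62.3 and 62.8 TPM in sh7 and 108 TPM in sh5 (-0.94, SE 0.098, limma adjusted p = 0.0651), and Cdkn1a, the cell cycle inhibitor p21, at 132 and 134 TPM in sh7 and 182 TPM in sh5 (-0.61, SE 0.0943, limma adjusted p = 0.0848).

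Cell cycle genes were split. Of 67 G2 and M phase genes, 1 rose, 23 lay higher and 8 lower at an unadjusted p under 0.05, with a median of 0.18, while 63 S phase genes had 8 higher, 9 lower and a median of -0.02. Kpna2, importin alpha 1, rose, with 27.4 and 32.1 TPM in sh7 and 2.01 TPM in sh5 (3.19, SE 0.174, limma adjusted p = 0.0348). The table also lists Kpna2rt, by its symbol a copy of Kpna2, at 278 and 300 TPM in sh7 and 286 TPM in sh5, and the sum of both genes was 306 and 332 TPM in sh7 and 288 TPM in sh5, a difference of -0.02 after the median shift. The call on Kpna2 is therefore uncertain, since reads can be divided between the copies in more than one way. The kinetochore motor gene Cenpe was at 27.9 and 32.8 TPM in sh7 and 10.4 TPM in sh5 (1.29, SE 0.157, limma adjusted p = 0.0653), and the spindle gene Ckap2l at 43.8 and 44.0 TPM in sh7 and 55.8 TPM in sh5 (-0.50, SE 0.105, limma adjusted p = 0.114). Along gene span the G2 and M medians were -0.24, 0.05, 0.19, 0.41 and 0.51 from the shortest to the longest quintile, beside the values of -0.19 to 0.17 over all protein-coding genes. The list of nuclear import receptors, which also holds Kpna2, had a median of -0.01 over 31 genes, with 5 higher and 4 lower at an unadjusted p under 0.05. Its member Tpr, of the nuclear pore basket, was at 105 and 128 TPM in sh7 and 43.0 TPM in sh5.

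Known targets of the microRNAs whose hosts lay higher differed unevenly. Of 48 tested targets of the miR-17 to 92 cluster, 16 lay higher and 4 lower at an unadjusted p under 0.05, with a median of 0.24. Zfp367 was at 69.5 and 65.1 TPM in sh7 and 32.1 TPM in sh5 (0.88, SE 0.11, limma adjusted p = 0.0654), and the chromatin factor gene Arid4b at 12.8 and 15.5 TPM in sh7 and 4.97 TPM in sh5 (1.18, SE 0.194, limma adjusted p = 0.0893). Ccn2, which encodes a secreted matricellular protein, went the other way at 13.6 and 17.4 TPM in sh7 and 22.9 TPM in sh5. By gene span the target medians were -0.16 and -0.09 in the shorter 2 quintiles and 0.43, 0.39 and 0.13 in the longer 3. Targets of let-7 had a median of -0.01, with 6 higher and 6 lower of 39, and targets of miR-29 a median of 0.15, with 2 higher and 2 lower of 23. Without the small RNA libraries, no level of a mature microRNA stands beside these values.

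Among single genes below sh5, none apart from the gene model Gm28438 passed the adjusted threshold. Ppp1r14b, an inhibitor of protein phosphatase 1, was at 266 and 261 TPM in sh7 and 554 TPM in sh5 (-1.23, SE 0.0967, limma adjusted p = 0.0546). Smn1, which assembles spliceosomal ribonucleoproteins, was at 36.6 and 35.1 TPM in sh7 and 75.3 TPM in sh5 (-1.21, SE 0.108, limma adjusted p = 0.0606), and Cdc34, a ubiquitin-conjugating enzyme on the let-7 list, at 79.0 and 87.2 TPM in sh7 and 181 TPM in sh5 (-1.27, SE 0.111, limma adjusted p = 0.0606). Bloc1s4, of lysosome-related organelle biogenesis, was at 7.74 and 9.38 TPM in sh7 and 27.3 TPM in sh5 (-1.73, SE 0.181, limma adjusted p = 0.0651), and Srpr, the receptor of the signal recognition particle, at 23.3 and 28.3 TPM in sh7 and 67.2 TPM in sh5 (-1.51, SE 0.157, limma adjusted p = 0.0651). Both sh7 libraries were well below sh5 for each, but the genes were named by smallest p or by size, which selects for this. Slc35c2, Trabd, Tmed4, Med11, Kctd17, Pagr1a, S100a16, Pkig and Fam229b completed the set, with differences of -1.72 to -1.13 and limma adjusted p-values of 0.0606 to 0.0798. In all, 69 genes lay at least 1 log2 unit below sh5 in both sh7 libraries, or 0.538% of those tested, against 326 above. The filter mean takes 2 of its 3 values from sh7, so genes with low values entered mostly through sh7, with 672 tested genes below 1 TPM in sh5 and 129 with an sh7 mean below 1 TPM. With the filter at 5 TPM the counts were 30 below and 160 above.

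Epithelial markers had a median of -0.22, which ranged from -0.36 to -0.04 across the alternatives, with 6 lower and 1 higher of 16 at an unadjusted p under 0.05, beside 11.5% lower and 12.7% higher of all genes tested. The keratin genes Krt7, Krt8 and Krt18 differed by -0.59, -0.53 and -0.47 log2 units, and the adhesion gene Epcam was at 53.1 and 55.4 TPM in sh7 and 64.7 TPM in sh5. Genes of cholesterol synthesis had a median of 0.09, with 4 higher and 3 lower of 29, and the sterol isomerase gene Ebp was at 38.5 and 37.1 TPM in sh7 and 62.6 TPM in sh5. Medians within 0.25 log2 units of 0 were seen for collagens, TGF-beta genes, immediate-early genes, angiogenic factors, GATA factors, DNA methylation enzymes, glycolysis genes and histones.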

How the data were processed

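Poly(A) RNA libraries of SV40-MES-13 cells were compared, 2 with the shRNA sh7 and 1 with sh5. The values are TPM as deposited by the authors for 55357 genes, made with kallisto 0.48.0 per the submitters' processing notes. Build, annotation, strand use and the summing to genes were not given in the sources used here. Depth is unknown, since TPM keep none. Of 22339 genes without a symbol, 19991 were named from a mouse gene name table, and mitochondrial genes carry mouse names from it.

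Genes whose mean across the 3 libraries reached 1 TPM were fitted on log2(TPM + 1) with limma 3.58.1 in R 4.3.3 (group means, eBayes with trend, two-sided), and the median sh7 minus sh5 shift of 0.159 was removed. The fit has 1 residual degree of freedom, from the sh7 pair, and the lone sh5 library is assumed to vary like sh7. P-values were adjusted by Benjamini-Hochberg over all genes tested. On simulated data with 12540 genes, 20% of changes of 1 log2 unit and 80% of 2 log2 units were recovered, with 8 false calls. These shares hold for the simulated data only. In the libraries themselves Lncppara at 4.37 and Dleu2 at 2.29 log2 units missed the threshold, while Dgcr8 at 2.56 passed. Differences on this scale understate the change of low genes, and genes listed at 0 get no fold.

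The comparison, the 38 gene lists and the rule for named genes were chosen with earlier results of these data known. Named were the Microprocessor genes, up to 12 genes per direction by threshold or smallest p, up to 8 by size, from annotated genes averaging 5 TPM or more, and up to 6 members of each list; genes outside these were chosen after their values were seen to show a role. Hairpins and promoters are from RefSeq (GRCm38.p6), and the gene table there has no strand. Alternatives were other pseudocounts, filters, scalings, eBayes settings, the spread from the empty vector libraries, and each sh7 library left out.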

Additional observations from a re-analysis of the deposited data

How the results depend on the processing

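No paired analysis was possible because the groups share only replicate number 1. The count of genes past the adjusted threshold moved with nearly every choice. In place of 9 higher and 1 lower, it was 65 and 4 without the median correction, 140 and 83 with each library centred on its own median, 33 and 2 with a pseudocount of 0.1, 14 higher with 0.5, and 718 and 520 with a filter at 5 TPM. It was 2 and 0 (Dgcr8 and Mir22hg, both at an adjusted p of 0.033) with the spread also taken from the empty vector libraries. It was 0 and 0 without a filter, with median-of-ratios scaling, with quantile normalization and without the trend, where 4521, 3029, 2480 and 2506 genes had an unadjusted p under 0.05. Without sh7 replicate 1 or 2 and with the spread of the empty vector pair it was also 0 and 0, with 1514 and 1034 genes at an unadjusted p under 0.05. All 10 genes passed under no correction, own-median centring, both pseudocounts, the filter at 5 TPM, rescaling without mitochondrial and the 20 most abundant genes, and robust eBayes. Drosha passed only with the filter at 5 TPM, at -1.74 (adjusted p = 0.00562). The cause of these changes was not tested.

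Genes at least 1 log2 unit apart in place of 326 above and 69 below were 509 and 111 with a pseudocount of 0.1, 160 and 30 with the filter at 5 TPM, and 135 below without a filter; leaving out an sh7 library gave 434 to 577 above and 174 to 178 below. List medians kept their sign under all alternatives for 23 of 37 lists. The interferon median ranged from 0.91 to 1.14, the hosts from 0.76 to 2.46, the mitochondrial mRNAs from 2.04 to 2.93, and the cytosolic ribosomal proteins from -0.47 to -0.07. Of the named genes, 4 changed sign. Cd68 was 0.11 without the correction, 0.0337 without a filter and 0.00098 without sh7 replicate 2, mt-Co3 was 0.23 without sh7 replicate 1, Rpl5 was -0.0493 with own-median centring and -0.0574 without sh7 replicate 2, and Kpna2rt was 0.0137 without the correction and 0.0347 under quantile normalization. The unknown depth limits every low value.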
